A study of Homo sapiens with 3 samples.

Results

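Accessible chromatin was described at the 40 protein-coding genes of the semaphorin, plexin, Slit, Robo and UNC5 families in hCMEC/D3, a human cell line made by immortalizing endothelial cells of brain microvessels. The genes were chosen by symbol alone: SEMA3 to SEMA7 plus a letter, PLXNA to PLXND plus a digit, SLIT1 to SLIT3, ROBO1 to ROBO4 and UNC5A to UNC5D. They comprised 20 semaphorins, 9 plexins, 3 Slits, 4 Robos and 4 UNC5 genes, out of 20037 protein-coding genes of a RefSeq table of assembly GRCh38.p14. The material was 1 ATAC-seq library (replicate 2) of cells grown to confluence on collagen at passages 4 to 6, with no treatment named. ATAC-seq cuts and tags open DNA with the Tn5 transposase, and the authors' peak list gives 106415 regions where cuts accumulate. The line is a single immortalized culture with no second group, so the values have no replicate check and no test between groups was made.

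These families guide growing axons and sprouting vessels. Semaphorins, secreted or membrane-bound, act through plexins, and most secreted class 3 semaphorins need a neuropilin as co-receptor. Slits are secreted ligands of Robo receptors, and UNC5 proteins are receptors for netrins. In endothelium, PLXND1 receives SEMA3E, ROBO4 marks vessels rather than neurons, and UNC5B, which also binds ROBO4, is present in sprouting and barrier-forming vessels.

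A peak within 1 kb of either end of a gene, called an end peak here, was found for 32 of the 40 genes (80%, 95% Wilson interval over genes 65.2% to 89.5%). The background over all protein-coding genes was 72.8%, which lies inside that interval. A peak anywhere in the gene or within 1 kb of it was found for 38 of 40 (95%, 83.5% to 98.6%), against 83.7% of all protein-coding genes. ROBO1 and UNC5D were the exceptions. The 38 genes held 251 peaks, of which 46 were end peaks and 205 lay inside. The 8 genes without an end peak were SEMA3A, SEMA3D, SEMA5A, PLXNA4, SLIT3, ROBO1, ROBO2 and UNC5D, each longer than 100 kb.

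The genes without an end peak were all among the long ones. All 10 genes under 20 kb had an end peak (background 65.1%), as did all 11 genes from 20 to 100 kb (background 80.5%). Together these are 21 of 21 (100%, 84.5% to 100%), compared with 72.2% of protein-coding genes of 100 kb or less. Of the 19 longer genes, 11 had one (57.9%, 36.3% to 76.9%), compared with a background of 76.3% over 100 kb, just inside the interval. Length was not matched within a class. The median over 100 kb was 369 kb for the members and 175 kb for the background, and under 20 kb it was 15.6 kb and 7.51 kb. With windows of 500 bp, 18 of the 21 shorter genes (85.7%, all protein-coding 68.4%) and 9 of the 19 longer ones (47.4%, all protein-coding 73.1%) had an end peak. At tabulated starts alone, 18 of 19 shorter genes had a peak (94.7%, all protein-coding 72.6%). Of the longer ones, 9 of 16 had one (56.25%, 33.2% to 76.9%, all protein-coding 80.8%). The split by length was chosen after seeing these data, so the intervals describe it and do not test it.

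The sequences just before annotated starts are shown for members whose start lay under or beside a peak, and for ROBO1, where no peak was called. They are the 250 bases up to the base before the start, 5′ to 3′ on the gene's strand, taken from RefSeq promoters of build GRCh38.p14. Capitals mark matches on either strand to short motifs of transcription factors. The SP and KLF factors are represented by GGGCGG and the factor NFY by CCAAT. For the GATA factors the letters searched were AGATAA, and for the TEAD factors GGAATG. The AP-1 motif was searched as TGANTCA. For the ETS factors it was CCGGAANT. The FOX motif was TGTTTAC. Neighbouring matches can overlap and then run together. PLXND1 and ROBO4 were set by name, ROBO1 was added after its values were seen, and the others had the highest peak over a start in their family.
PLXND1: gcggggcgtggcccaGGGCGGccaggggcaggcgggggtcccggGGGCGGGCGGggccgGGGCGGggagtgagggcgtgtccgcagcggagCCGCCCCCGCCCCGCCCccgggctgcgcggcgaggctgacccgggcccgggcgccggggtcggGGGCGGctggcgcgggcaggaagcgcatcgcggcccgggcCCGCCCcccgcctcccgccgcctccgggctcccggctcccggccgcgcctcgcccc
ROBO4: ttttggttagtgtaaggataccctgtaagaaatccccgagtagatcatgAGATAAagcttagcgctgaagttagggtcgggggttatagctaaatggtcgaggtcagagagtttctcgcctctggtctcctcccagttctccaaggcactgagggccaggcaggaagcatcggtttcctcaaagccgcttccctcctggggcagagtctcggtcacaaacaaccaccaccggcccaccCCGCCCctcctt
SEMA3C: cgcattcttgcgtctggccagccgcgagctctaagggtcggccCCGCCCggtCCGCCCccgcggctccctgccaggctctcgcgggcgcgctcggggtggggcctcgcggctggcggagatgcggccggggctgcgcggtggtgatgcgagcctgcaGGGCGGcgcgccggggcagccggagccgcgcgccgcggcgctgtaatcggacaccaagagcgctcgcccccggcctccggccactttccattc
SEMA4F: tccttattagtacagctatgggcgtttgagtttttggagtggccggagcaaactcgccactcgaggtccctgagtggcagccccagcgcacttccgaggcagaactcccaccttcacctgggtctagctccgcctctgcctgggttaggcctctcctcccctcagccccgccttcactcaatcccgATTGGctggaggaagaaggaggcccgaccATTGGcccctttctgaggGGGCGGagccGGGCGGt
SEMA6C: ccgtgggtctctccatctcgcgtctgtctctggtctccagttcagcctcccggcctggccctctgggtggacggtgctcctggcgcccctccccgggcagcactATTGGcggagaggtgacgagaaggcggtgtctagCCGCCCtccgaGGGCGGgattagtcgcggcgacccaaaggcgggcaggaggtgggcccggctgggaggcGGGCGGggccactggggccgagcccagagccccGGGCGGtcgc
PLXNA2: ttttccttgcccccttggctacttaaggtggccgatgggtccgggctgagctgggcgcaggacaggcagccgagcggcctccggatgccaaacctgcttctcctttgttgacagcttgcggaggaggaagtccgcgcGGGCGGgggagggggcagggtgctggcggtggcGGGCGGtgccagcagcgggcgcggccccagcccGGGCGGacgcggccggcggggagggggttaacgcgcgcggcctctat
PLXNB3: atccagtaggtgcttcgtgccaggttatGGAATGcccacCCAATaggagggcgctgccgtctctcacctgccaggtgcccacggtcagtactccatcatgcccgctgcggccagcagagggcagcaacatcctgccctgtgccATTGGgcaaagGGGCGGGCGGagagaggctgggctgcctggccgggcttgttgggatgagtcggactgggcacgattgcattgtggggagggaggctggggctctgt
SLIT2: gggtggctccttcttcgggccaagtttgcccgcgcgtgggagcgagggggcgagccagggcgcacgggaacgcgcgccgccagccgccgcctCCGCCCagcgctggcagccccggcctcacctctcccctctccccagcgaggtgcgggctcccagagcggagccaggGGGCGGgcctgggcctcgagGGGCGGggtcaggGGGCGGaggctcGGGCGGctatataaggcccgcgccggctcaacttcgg
ROBO1: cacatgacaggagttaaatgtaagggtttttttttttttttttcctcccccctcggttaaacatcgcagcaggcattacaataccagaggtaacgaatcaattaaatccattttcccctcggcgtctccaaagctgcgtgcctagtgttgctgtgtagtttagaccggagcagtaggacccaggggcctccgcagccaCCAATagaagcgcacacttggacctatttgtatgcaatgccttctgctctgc
PLXND1 lies at chr3:129606677-129606926, ROBO4 at chr11:124897866-124898115, PLXNA2 at chr1:208244385-208244634, SEMA6C at chr1:151146632-151146881 and SEMA3C at chr7:80919052-80919301, all on the minus strand. SEMA4F lies at chr2:74653997-74654246, PLXNB3 at chrX:153763999-153764248 and SLIT2 at chr4:20251655-20251904, on the plus strand. ROBO1 lies at chr3:79767999-79768248 on the minus strand. The PLXND1 sequence is 88.8% G and C and holds 9 matches to GGGCGG. The ROBO4 sequence is 54.8% G and C, with 1 GGGCGG and 1 AGATAA, and that of ROBO1 is 48.0% G and C with 1 CCAAT and no GGGCGG.

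A start was tabulated for 35 of the 40 genes, often more than 1, giving 60 starts; SEMA3A, SEMA6A, SEMA6B, UNC5B and UNC5D had none. A peak lay within 1 kb of a start for 27 of these 35 genes (77.1%, 61.0% to 87.9%), against a background of 74.0% of 15843 protein-coding genes. Per start, 41 of 60 had a peak (68.3%), compared with 70.9% of 22199 starts of protein-coding genes. The 41 starts with a peak had a median G and C content of 70.0% in the 250 bases before them, and the 19 without had 60.4%. For all protein-coding starts the medians were 65.2% with a peak and 50.8% without. GGGCGG was in 30 of the 41 sequences with a peak (73.2%) and in 7 of the 19 without (36.8%). Over all protein-coding starts it was in 66.2% of sequences with a peak, in 23.5% of those without, and in 53.7% in all, so the same direction was seen there. CCAAT was in 15 of the 60 (25%, all 32.7%), GGAATG in 6 (10%, all 10.5%) and AGATAA in 4 (6.67%, all 7.09%). CCGGAANT was in 2 (3.33%, all 6.52%), TGANTCA in 1 (1.67%, all 5.36%) and TGTTTAC in 1 (1.67%, all 2.45%). Several starts belong to the same gene, so these counts are a description and the sequences are not independent.

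**Figure D1:**
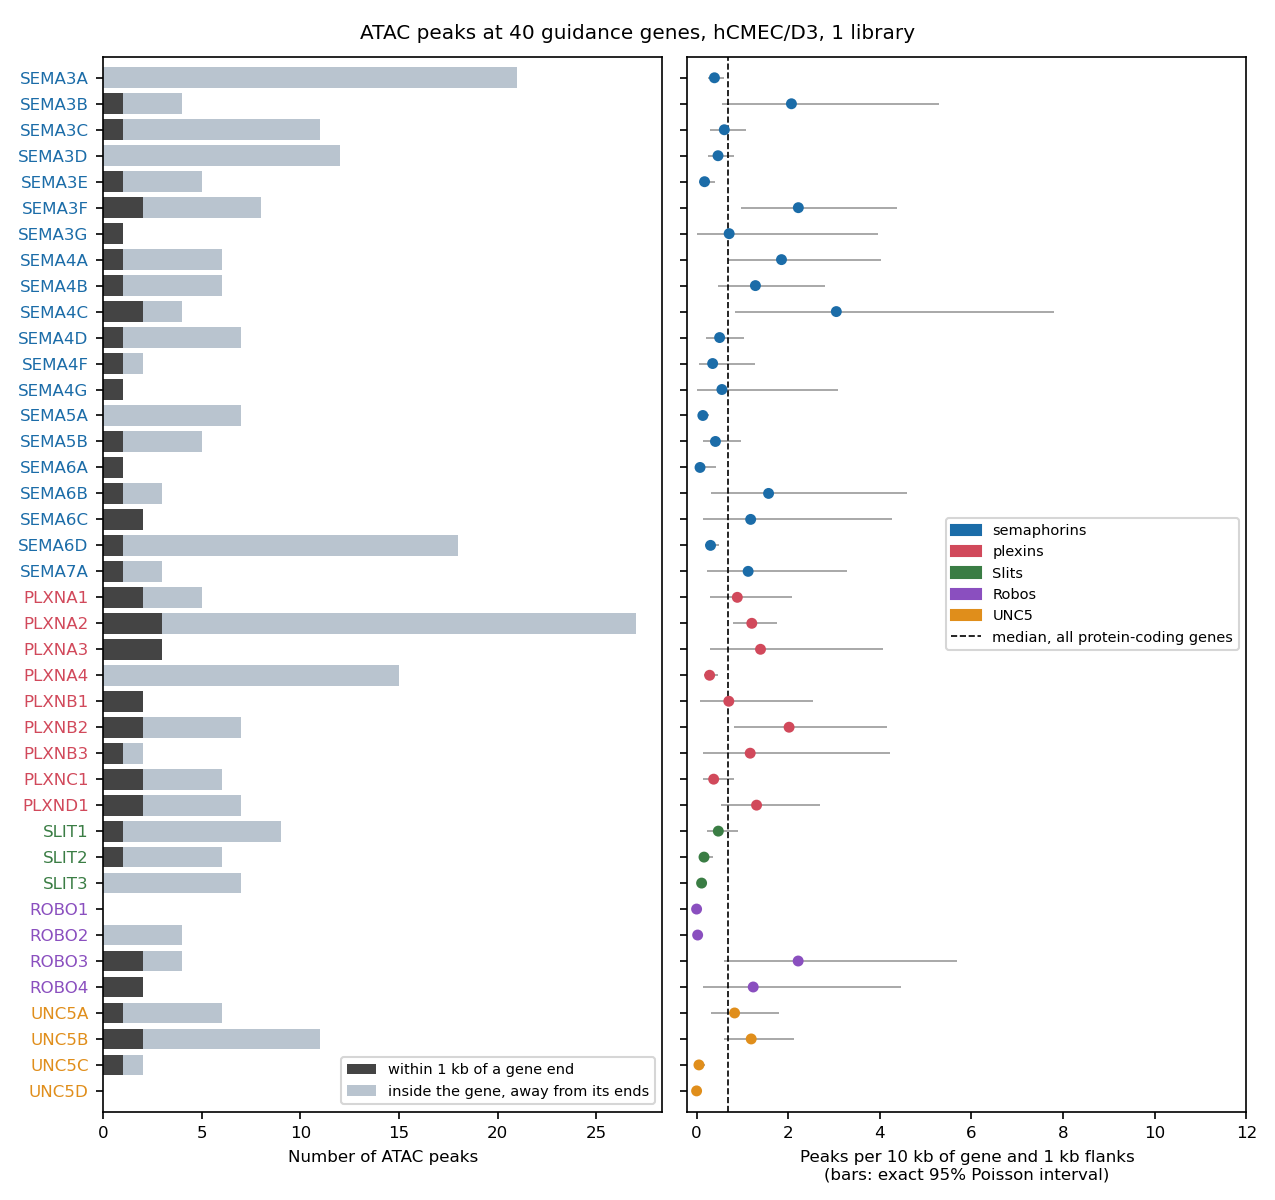
Left, number of ATAC peaks at each of the 40 genes, split into peaks within 1 kb of a gene end (dark) and peaks inside the gene (light). Right, peaks per 10 kb of gene and flanks with exact 95% Poisson intervals, which cover counting error only, and the median of all protein-coding genes, 0.685 (dashed line); PLXNA2 had the most peaks, 27, and ROBO1 and UNC5D had 0.

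The secreted class 3 semaphorins had end peaks at 5 of 7 genes and 62 peaks in all, 56 of them inside the genes. The highest end peak was at SEMA3B, which with SEMA3F sits in a gene-dense stretch of chromosome 3. It ran from 50259892 to 50260746 (855 bp) with a pileup, the number of tags stacked over the peak, of 59.5 and a fold of 3.65 over the local background of the same library. Pileup, fold and q-value are the authors' values for each peak. This peak also lay at an end of GNAI2, a G protein subunit gene, and the 2 genes cannot be told apart there. SEMA3F had 8 peaks in 34.0 kb, 2.22 per 10 kb, with a pileup of 51.8 over its outer start, 59.1 at the other end and 64.3 at the highest peak, 5.14 kb past the nearest tabulated start. The peak over the outer start also lay at an end of LOC124909484.

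SEMA3G, whose product is known from arterial endothelium, had a single peak, 417 bp at 52444887 to 52445303 of chromosome 3, over its start with a pileup of 51.3 and a fold of 5.93. SEMA3E, the ligand of PLXND1, had a low peak near its start, with a pileup of 11.6 and a fold of 3.74. The highest peak of SEMA3E lay 173 kb into the gene (chromosome 7, 83468107 to 83468810) and had a pileup of 48.5 and a fold of 9.38. For SEMA3G the start was thus the only region called, whereas for SEMA3E an inner region had the larger pileup.

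The other class 3 genes, SEMA3A, SEMA3C and SEMA3D, are long and lie with SEMA3E on chromosome 7. SEMA3A, a ligand that repels axons and vessels, had 21 peaks and none at an end. No start was tabulated for SEMA3A, so whether a peak lay at a start inside the gene could not be read. Its highest peak, from 84041981 to 84042685, had a pileup of 65.9 and a fold of 10.4. SEMA3C had its highest peak, with a pileup of 61.5, over the start printed above. SEMA3D had no peak at either end of the gene, but a peak of 1067 bp with a pileup of 34.4 lay over its tabulated start, which is inside the gene extent.

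Each of the 6 class 4 semaphorins, membrane proteins that act mainly on class B plexins, had an end peak. SEMA4F had the highest (chromosome 2, 74653819 to 74654732), with a pileup of 66.1, a fold of 8.04 and a −log10 q of 43.2, over its start. SEMA4C had the highest density of all 40 genes, 3.05 peaks per 10 kb, from 4 peaks (exact Poisson interval 0.831 to 7.81). Its highest peak, with a pileup of 59.1, lay at the end away from its start and also at an end of ANKRD39, while the peak at its start, shared with LOC124908044, had 29.3. SEMA4D, the ligand of PLXNB1, had 7 peaks with pileups up to 21.2, and its end peak had a pileup of 12.3. SEMA4G had 1 peak, at its start, with a pileup of 21.7.

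Among semaphorins of classes 5 to 7, 6 of 7 genes had an end peak. SEMA6C had the highest, of 1657 bp (chromosome 1, 151145678 to 151147334), with a pileup of 54.7 over its start. SEMA6D had 18 peaks across 590 kb, and its end peak, with a pileup of 9.71, was the lowest of the 32 genes with one. A peak over an inner start of SEMA6D had a pileup of 33.7, and the highest, away from any tabulated start, 53.96. SEMA6A, a plexin A ligand with a role in vessel survival, had 1 peak in 131 kb, at an end, with a pileup of 20.2 and a fold of 4.69. SEMA5A had no end peak, although a peak was centred 1.44 kb from its start, just outside the window. SEMA7A, which is anchored by a lipid and binds PLXNC1, had 3 peaks, with a pileup of 34.6 at its start.

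Plexins, the signalling receptors of the semaphorins, had end peaks at 8 of 9 genes, with PLXNA4 the exception. Their 74 peaks had a median pileup of 30.8 tags, compared with 21.2 for the 127 semaphorin peaks and 23.5 for all 64362 peaks at protein-coding genes. The median fold went the other way, at 3.76 for plexins, 4.34 for semaphorins and 4.46 for all protein-coding genes. Per 10 kb, plexins held 0.658 peaks (0.517 to 0.827), semaphorins 0.414 (0.346 to 0.493), Slits 0.183 (0.115 to 0.277), UNC5 genes 0.170 (0.103 to 0.266) and Robos 0.0305 (0.0139 to 0.0579). All protein-coding genes held 0.497 per 10 kb. Among the Robos, ROBO3 and ROBO4 held 2.22 and 1.24, unlike the pooled value. UNC5A and UNC5B likewise held 0.829 and 1.19, while UNC5C and UNC5D held 0.0515 and 0. PLXNA2 alone supplied 27 of the 74 plexin peaks, and the density of plexins without it was not computed. With PLXNA2 included, the intervals of plexins and semaphorins did not overlap, and whether they would overlap without it was not tested. Those of Slits and UNC5 genes overlapped. These intervals treat peaks as independent counts, and the families differ in length, with medians of 51.5 kb for plexins, 49.95 kb for semaphorins and 369 kb for Slits.

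PLXNA2, a receptor for class 3 and class 6 semaphorins, stood out among the 40 genes by its 27 peaks in 222 kb. Of these, 20 lay before the midpoint of the gene, and 13 lay within 44.3 kb, on chromosome 1 from 208201216 to 208245487, the stretch that ends at the start printed above. The highest, from 208207366 to 208208179, was 36.6 kb from the start with a pileup of 129, the highest of the 251 peaks, and a fold of 4.60. The 2 peaks at the start had pileups of 52.2 and 51.5. In the 500 kb on either side of PLXNA2 there were 0.51 peaks per 10 kb, compared with 1.21 in the gene.

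PLXND1, the endothelial plexin, had 7 peaks in 51.5 kb. Both end peaks were beside its start, with pileups of 49.4 and 43.1 and folds of 2.29 and 2.16. The 3 highest peaks followed within the gene, 3.31, 7.07 and 10.1 kb from the start, with pileups of 78.2, 64.5 and 72.6. The fold at the start was the lowest among the highest end peaks of the 32 genes, although the pileup was above the median. The pileup and the fold thus place PLXND1 differently, and the fold depends on the local background of 10000 bp around the peak.

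PLXNB2, a receptor of class 4 semaphorins, had the highest density among plexins, with 7 peaks in 32.7 kb (2.02 per 10 kb). Its highest end peak, at 50308516 to 50308885 of chromosome 22, had a pileup of 52.1 and also lay at an end of DENND6B. PLXNB1 had 2 peaks, with a pileup of 28.1 for the one at its start, which was 1939 bp long. PLXNA3 had its highest end peak, with a pileup of 51.6, at the end away from its start and at an end of LAGE3. The peaks at the start of PLXNA3 had pileups of 15.95 and 14.5. PLXNA4 had 15 inner peaks with pileups up to 34.9, and PLXNC1, the SEMA7A receptor, 6 peaks with pileups up to 23.98. Some of the PLXNC1 peaks also overlapped the gene CEP83, among them its highest end peak, with a pileup of 21.6.

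**Figure D2:**
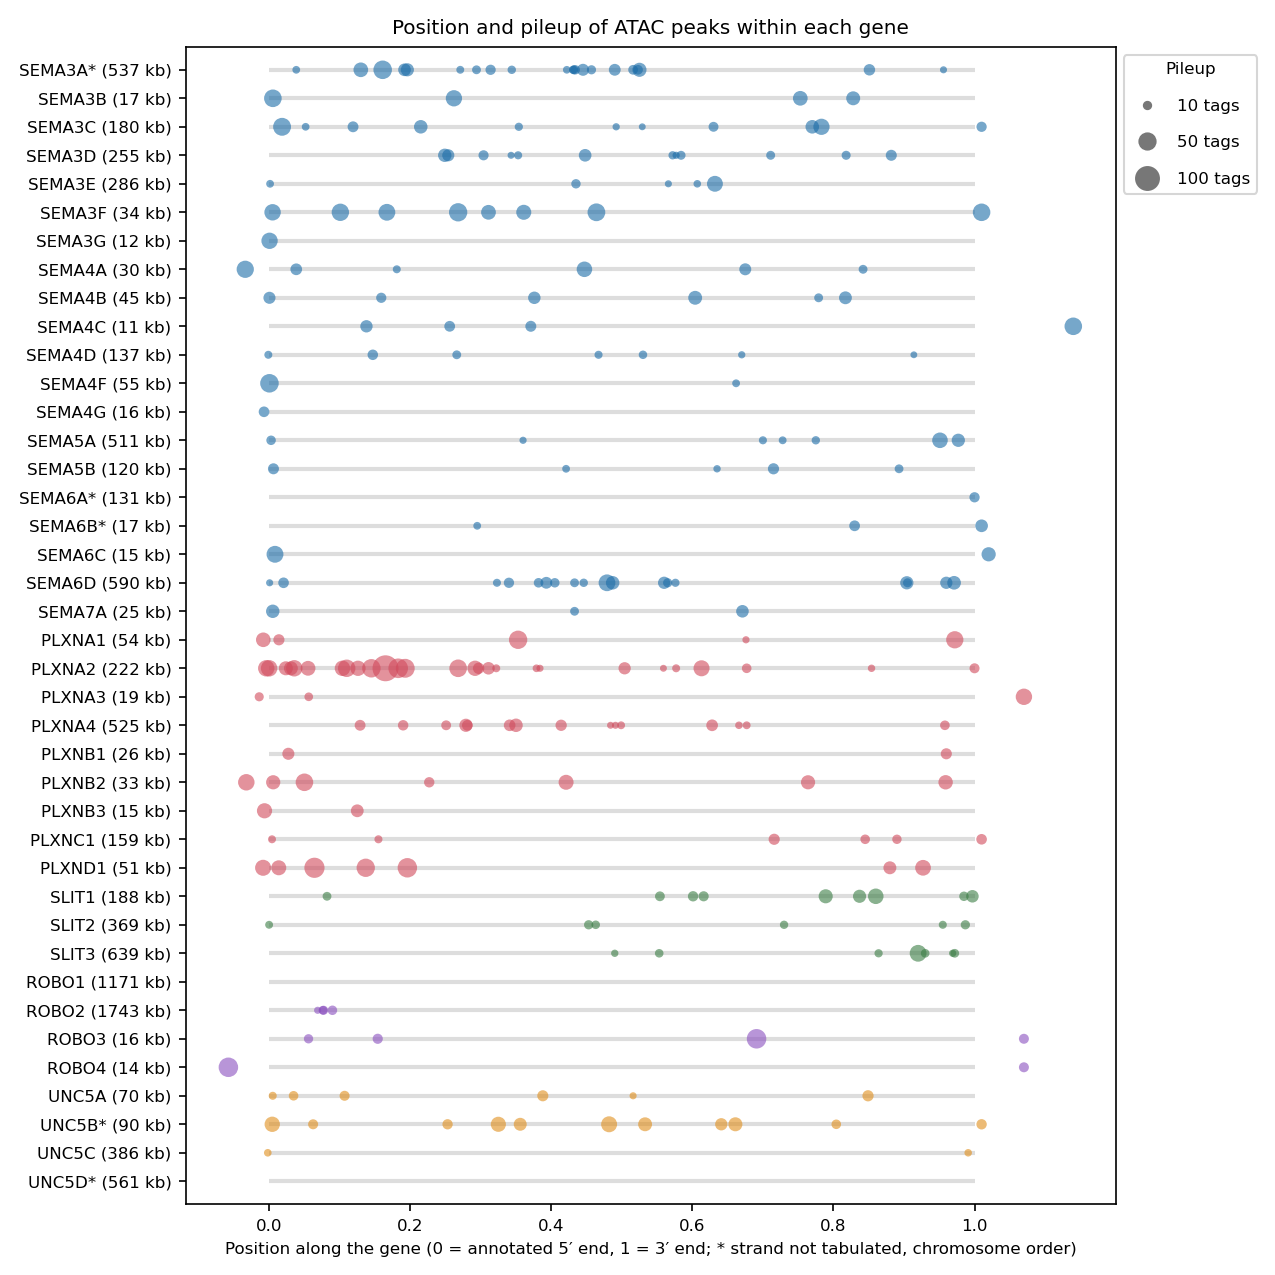
Each row is 1 gene drawn from its annotated 5′ end (0) to its 3′ end (1), and each circle is 1 ATAC peak with an area proportional to its pileup in tags. Genes with an asterisk have no tabulated strand and run in chromosome order; PLXNA2 peaks crowd near the 5′ end, SLIT1 and SLIT3 peaks lie mostly beyond the midpoint, and ROBO1 and UNC5D are empty.

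Of the Slits, the secreted ligands of ROBO1 and ROBO2, SLIT1 and SLIT2 had an end peak and SLIT3 had none. SLIT2 had a peak of 291 bp over its start (chromosome 4, 20251773 to 20252063), with a pileup of 11.96 and a fold of 3.84. Its other 5 peaks had pileups of 12.4 to 16.5. SLIT1 had 9 peaks with pileups up to 46.2, 8 of them beyond the midpoint, and its end peak, with a pileup of 30.1, was at the end away from its start. In SLIT3, 6 of 7 peaks lay beyond the midpoint. The highest, on chromosome 5 from 168712369 to 168713153, had a pileup of 54.1 and lay 588 kb from the start. The 22 Slit peaks had a median length of 289.5 bp, compared with 489 bp for all peaks at protein-coding genes and 440 bp at those over 100 kb. The 20 inner Slit peaks had a median of 288 bp, compared with 413 bp for inner peaks of protein-coding genes over 100 kb. The microRNA genes MIR218-1 and MIR218-2, hosted by SLIT2 and SLIT3, lay 7.11 kb and 19.5 kb from the nearest peak.

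The Robo receptors split into a pair with peaks over a start and a pair without. ROBO4, the endothelial Robo, had the highest end peak of the 40 genes, with a pileup of 73.0, a fold of 3.53 and a −log10 q of 19.6. It was 1837 bp long, on chromosome 11 from 124897765 to 124899601, and covered the start printed above. ROBO3, a receptor known from axons that cross the midline, lies next to ROBO4 and had 4 peaks. Its highest, from 124875997 to 124877021, had a pileup of 73.1 and a fold of 5.45 and covered a start inside the gene. The peak at the outer start of ROBO3 had a pileup of 16.7. A weaker peak, with a pileup of 19.2, lay between ROBO3 and ROBO4 and counted as an end peak of both.

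ROBO1 and ROBO2, the main Slit receptors, had almost no peaks. ROBO1 had 0 in 1171 kb, and the 500 kb on either side held 1 peak, with the nearest 105 kb away. ROBO2 had 4 in 1743 kb, all within 36.95 kb (chromosome 3, 76026452 to 76063405), at pileups of 9.78, 14.5, 15.8 and 17.2. The nearest to a tabulated start was 248 kb from it, and a single stretch of 1587 kb of the gene held no peak. The lowest pileup in the whole list was 8.0 tags, so weaker openings would not have been called. A count of 0 here says only that no peak was called. Read coverage over ROBO1, UNC5D and their surroundings was not analysed here, and whether copy number or the placing of reads bears on these counts was not tested.

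Among the netrin receptors, UNC5B, the one known from vessels, had 11 peaks in 90.3 kb, compared with 6 for UNC5A, 2 for UNC5C and 0 for UNC5D. The highest end peak of UNC5B, on chromosome 10 from 71212324 to 71213625 (1302 bp), had a pileup of 45.2 and a fold of 4.03. The 9 inner peaks of UNC5B had pileups of 17.6 to 48.96. End peaks of UNC5A and UNC5C were low, with pileups of 12.4 and 11.2. UNC5D lay in a stretch without peaks: none was called in its 561 kb or in the 500 kb on either side, and the nearest was 1062 kb away. As for ROBO1, these are counts of called peaks only. At the fold limit of 4, UNC5B kept an end peak and UNC5A and UNC5C, with folds of 2.90 and 3.61, did not. The fold of UNC5C was taken over the background for the whole genome, which rests on the genome size set in the caller. Whether UNC5C would pass with another genome size was not tested.

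**Figure D3:**
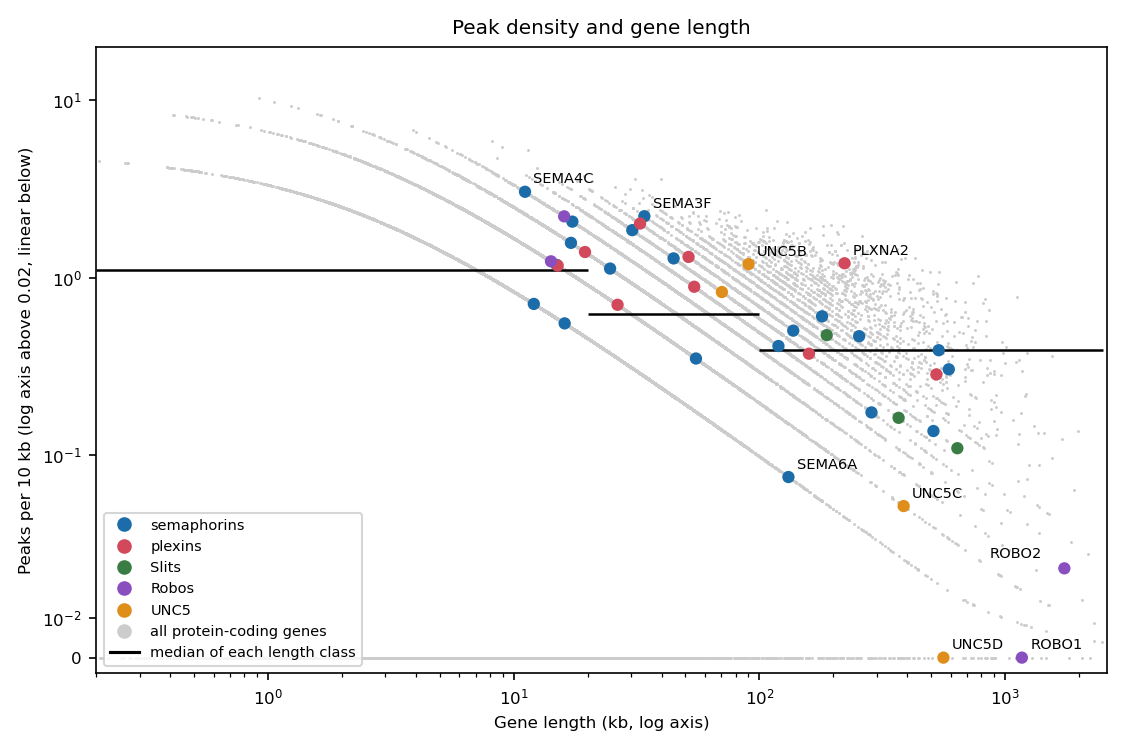
Peaks per 10 kb (vertical, log axis above 0.02) against gene length in kb (horizontal, log axis) for the 40 genes in colour and all protein-coding genes in grey, with the median of each length class as a black line (1.10 under 20 kb, 0.626 from 20 to 100 kb, 0.389 over 100 kb). Most coloured points of 100 kb or less lie above the line of their class, and ROBO1, ROBO2, UNC5C, UNC5D and SEMA6A lie far below theirs; grey bands are genes with the same number of peaks.

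Peak density was then read against genes of the same length class, because density falls with length. Lengths within a class were not matched. Over 100 kb the median was 369 kb for the members and 175 kb for all protein-coding genes. Under 20 kb these medians were 15.6 kb and 7.51 kb, and from 20 to 100 kb they were 44.7 kb and 42.0 kb. Under 20 kb, 8 of the 10 genes exceeded the median of protein-coding genes of that class (1.10 peaks per 10 kb), SEMA3G and SEMA4G being lower. From 20 to 100 kb, 10 of 11 exceeded the class median of 0.626, SEMA4F being lower. Over 100 kb, 7 of 19 exceeded the class median of 0.389, and these were PLXNA2, SEMA3A, SEMA3C, SEMA3D, SEMA4D, SEMA5B and SLIT1. Over all 40 genes the pooled density was 0.265 per 10 kb (0.234 to 0.300), against 0.497 for all protein-coding genes. Without ROBO1 and ROBO2, which make up much of the summed length of 9459 kb, it was 0.378. Across the 40 genes, Spearman's rho was −0.80 between density and gene length and 0.81 between density and that of the 500 kb on either side. These coefficients describe genes of 1 library, which are not replicates, and length enters the density itself; over all protein-coding genes the first was −0.24.

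Among the long members, the highest end peak of each gene had a lower pileup than usual. In both length groups this peak was shorter and lower in fold. Over the 32 genes its median pileup was 32.8 tags and its median fold 4.33, compared with 45.7 and 5.02 for the same peak of 14595 protein-coding genes. For the 21 genes of 100 kb or less the median pileup was 49.4, and it was 46.8 over protein-coding genes of that length. Their median fold was lower, at 4.45 compared with 5.06. For the 11 longer genes the median pileup was 20.2, and it was 40.95 over protein-coding genes over 100 kb, which were not matched in length. Their median fold was 3.84, compared with 4.83. Median lengths of these peaks were 855 bp and 499 bp, compared with 1053 bp and 1081 bp. Inner peaks had a median pileup of 20.4 tags in the 40 genes and 20.3 in all protein-coding genes, but the lengths differed. In the members of 100 kb or less it was 31.9, compared with 22.1 in protein-coding genes of that length, and in the longer members 17.3, compared with 19.4. The median fold of inner peaks went the other way in the members of 100 kb or less, at 3.77 compared with 4.26. In the longer members it was 4.46, compared with 4.47. In a bulk library, the share of cells with a site open and the openness per cell cannot be told apart.

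**Figure D4:**
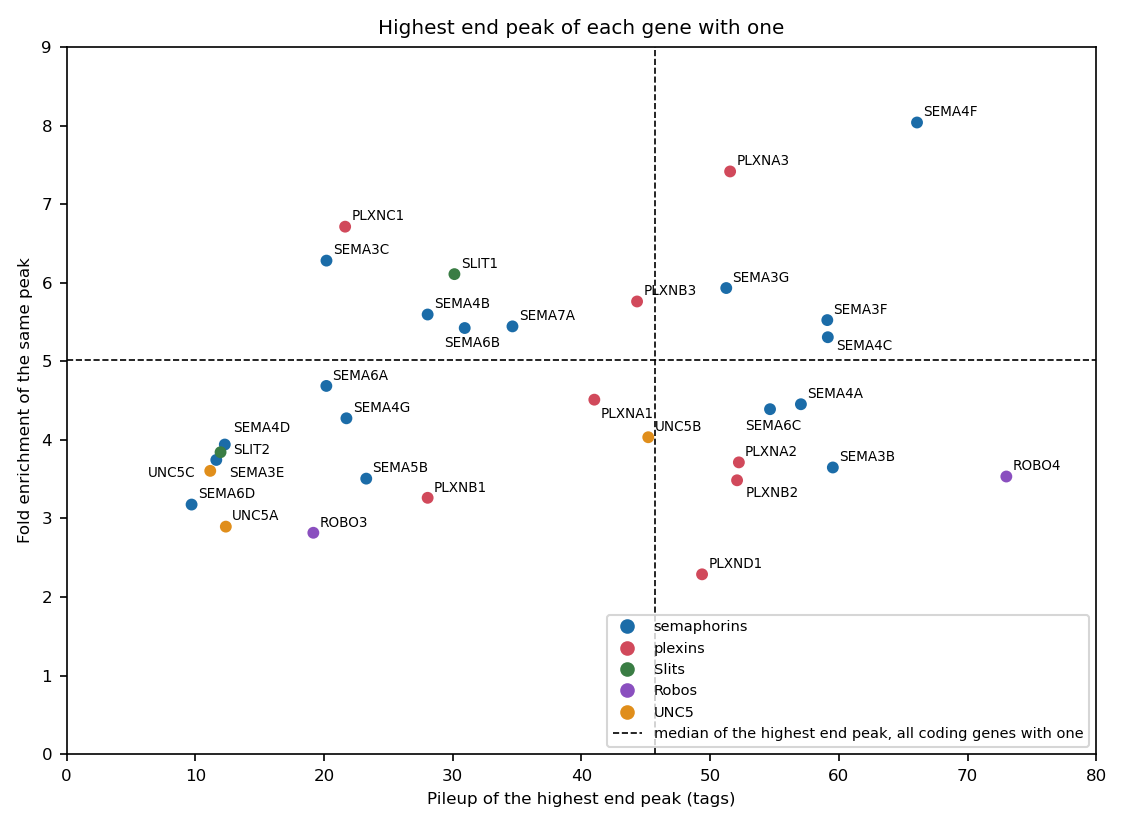
Pileup in tags (horizontal) and fold enrichment (vertical) of the highest end peak of each of the 32 genes with one; dashed lines are the medians of the same values for 14595 protein-coding genes, 45.7 tags and 5.02-fold. ROBO4 has the highest pileup, 73.0, SEMA4F the highest fold, 8.04, and PLXND1 the lowest fold, 2.29.

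Of the 38 genes with a peak, 15 had their highest peak at an end, and 23 had it inside. The latter include PLXNA2, PLXND1, UNC5B and SEMA3E among genes with a vascular role, and ROBO4 and SEMA3G are of the former kind. For SEMA3C, SEMA3D, PLXNC1 and ROBO3 the highest peak, though inside, lay within 1 kb of a tabulated start. The same split was not counted over all protein-coding genes, so it has no background here. In 7 genes (SEMA3B, SEMA3F, SEMA4C, PLXNA3, PLXNB2, ROBO3 and ROBO4) an end peak was shared with an end of another protein-coding gene. Without shared peaks, 30 of 40 genes (75.0%) still had an end peak, compared with 55.5% of all protein-coding genes.

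Partners of these families were counted from a list of 33 genes. An end peak was found for 27 (81.8%, 65.6% to 91.4%), against 72.8% of all protein-coding genes, and the list held 0.504 peaks per 10 kb, against 0.497. Both values lie near the background. The co-receptors NRP1 and NRP2, shared by class 3 semaphorins and VEGF, had end peaks with pileups of 49.7 and 39.3, and 19 and 10 peaks in all. Among netrin ligands, NTN4 had an end peak with a pileup of 40.2 and NTN1 one of 8.36. Of the other netrin receptors, NEO1 had end peaks, with a pileup of 16.3 for the highest, and DCC had no peak in 1196 kb. SRGAP2, a GTPase-activating partner of Robos, had 45 peaks (1.71 per 10 kb). The like-named SRGAP2B and SRGAP2C had 37 and 38 (1.76 and 1.81 per 10 kb), and the placing of reads among these genes was not tested. The genes without an end peak were CRMP1, DCC, DPYSL4, DRAXIN, DSCAM and MICAL1. Like DCC, DSCAM (836 kb) and DPYSL4 (18.8 kb) had no peak at all.

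Cell type markers were read from the same list. All 8 endothelial markers had an end peak, and so did 10 of 13 markers of blood, neural, mural and epithelial cells. HBB, AQP4 and KRT5 had no peak. With 72.8% of all protein-coding genes having an end peak, the second count is near the background. An end peak thus did not separate endothelial from other markers here, and the part of this in the values of the guidance genes was not tested. The list was made from 22188172 tags, 1 kept per position of 31532245.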

How the data were processed

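Peaks of ATAC-seq replicate 2 were used. The 2 RNA tables of the series were not used, because no table here links their transcripts to genes. Per the file headers, the authors called broad peaks with MACS 2.2.7.1 on 1 library without a control, in single-end mode, shifting tags by -100 bp and extending them to 200 bp, at q of 0.05 (strong) and 0.1 (broad), keeping 1 tag per position. The effective genome size was 1870000000 bp, the mouse preset of the caller (-g mm), although the cells are human; its effect on the peaks called was not tested. The deposited list gives for each peak its length, the pileup signal in tags, the fold ratio over an estimated background, −log10 p-value and −log10 q-value. These values served only to describe and filter peaks within the list. The background was estimated within 10000 bp, but it has a lower bound for the whole genome that rests on the genome size. Weak peaks at that bound had the same fold at the same pileup, as at SEMA3E and SEMA6B (3.74 at 11.63 tags). The build is not named in the list, and the submitters' processing notes name GRCh38 and mm10. End peaks were found for 72.8% of protein-coding genes as deposited, and for 26.3% to 29.0% with all peaks moved by 10 or 100 kb in either direction.

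Peaks were placed with Python 3.11.15 and pandas 2.3.3 on RefSeq gene extents (windows of 1000 bp, overlap of at least 1 bp; placement tested on simulated data). Density is peaks per 10 kb of gene and flanks. Starts, strands and sequences came from a RefSeq promoter table of GRCh38.p14. Intervals are 95% Wilson over genes or exact Poisson over peaks and cover counting error only. Named genes were, per family, those with the highest end peak, the most peaks and the highest density, those without an end peak, and genes with textbook roles in vessels; any member could be named. Members, lists and tests were chosen with earlier results of these data known. The alternatives were windows of 500 and 2500 bp, −log10 q of at least 5, fold of at least 4, overlap of at least 200 bp, tabulated starts only, and gene bodies without flanks.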

Additional observations from a re-analysis of the deposited data

How the results depend on the processing

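No paired analysis was possible because 1 ATAC library was used and no result comes from a test between groups. Of 43 alternative values, 32 stayed inside the 95% interval of the reported value and 11 moved out of it; leaving out ROBO1 and ROBO2, leaving out shared peaks, and splitting the share with an end peak by length were chosen after seeing the data. With −log10 q of at least 5, 25 of 40 genes had an end peak (62.5%), 170 peaks gave 0.180 per 10 kb, and the median length and pileup were 542 bp and 30.6 tags. With a fold of at least 4, 19 genes had an end peak (47.5%), 139 peaks gave 0.147 per 10 kb, and the median pileup was 26.9 tags. These filters leave fewer peaks; the share over all protein-coding genes was 66.7% and 56.0%. The fold filter removed the end peaks of 13 genes, among them ROBO4, PLXND1, PLXNB1 and PLXNB2, and the q filter those of 7, among them SLIT2, SEMA3E and SEMA4D. Of the end peaks removed by the fold filter, those of SLIT2, SEMA3E, SEMA4D, SEMA6D and UNC5C had folds over the background for the whole genome. For genes over 100 kb the share fell from 57.9% to 31.6% (q, protein-coding genes of that length 67.6%) and 26.3% (fold, 56.8%). For shorter ones it fell from 100% to 90.5% (q, 66.5%) and 66.7% (fold, 55.9%). Without ROBO1 and ROBO2 the density was 0.378. The window of 2500 bp added SEMA5A and SLIT3. A pileup under 8.0 tags was not called.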

Other observations

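Base composition and peak size at a start did not follow each other in every gene. The 250 bases before the SLIT2 start are 77.2% G and C with 5 matches to GGGCGG, while the peak over them was 291 bp long with a pileup of 11.96. At ROBO4 the sequence was 54.8% G and C with 1 such match, and the peak was 1837 bp long with a pileup of 73.0. SEMA5A had 82.0% G and C before its start and no peak within 1 kb of it. PLXNA4 (63.6%), SLIT1 (68.4%) and SLIT3 (62.8%) had no peak within 1 kb of their tabulated start either.

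For members over 100 kb with a known strand, peaks were counted along the gene. By position from the 5′ end in 4 equal parts, 24.4%, 29.6%, 23.7% and 22.2% of 135 peaks lay in each, compared with 29.5%, 23.5%, 23.2% and 23.8% of 26414 peaks over protein-coding genes of that length. The difference was not tested.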
